A study of Rattus norvegicus with 6 samples.

Results

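The alcohol and aldehyde dehydrogenases of rat liver described here are Adh1, Adh4, Adh5, Adh7, Aldh1a1, Aldh1a7, Aldh1l1, Aldh2, Aldh3a2 and Aldh9a1. They were found by matching the accession of each array probe to the rat RefSeq gene table, which named 9 of the 10 genes, with Adh1 listed there as Adh1c. No probe could be assigned to Aldh1a7 in this way, and it is not analysed here. The 9 genes were covered by 17 probes, all of them above background on all 6 arrays and all tested, among 33428 tested probes and 10251 genes in all. Liver RNA came from male Sprague-Dawley (Crl:CD(SD)) rats bought at 5 weeks of age, 3 given the vehicle corn oil and 3 given o-anthranilic acid, which cells also form when they degrade tryptophan, at 1000 mg/kg/day. Each rat had its own single-colour array. One label gives 9 weeks of dosing and another 28 days, so the length of exposure is uncertain.

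Alcohol dehydrogenases are zinc enzymes that oxidise alcohols to aldehydes with NAD, and aldehyde dehydrogenases carry the aldehydes on to acids. The liver is the main site at which the body clears ethanol, by Adh1 and then by the mitochondrial Aldh2. Other members act on retinol and retinal, on formaldehyde, on fatty aldehydes and on aldehydes that arise in the breakdown of amines and folates.

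None of the 9 genes passed the limma test. Adh7, Aldh1l1 and Aldh9a1 had higher signals on every treated array than on any corn oil array, with differences of 1.29, 0.49 and 0.35 on the log2 scale. Adh1, Adh5 and Aldh1a1 had higher means in the treated group with overlapping groups, and Adh4, Aldh2 and Aldh3a2 had slightly lower means. At limma adjusted p under 0.05 the count was 0 of 9 genes and 0 of 17 probes. Over all genes it was 0 of 10251 (0%), and over all tested probes 11 (0.0329%). At unadjusted p under 0.05 there were 3 of the 9 genes, all higher in treated livers, against 11.6% of all genes, 5.47% higher and 6.15% lower. The groups did not overlap for the same 3 genes, against 19.8% of all genes, 10.7% with the treated rats above and 9.12% with them below. At the level of probes they did not overlap for 4 of 17, against 20.3% of all tested probes. The median difference of the 9 genes was 0.35, beside 0.01 over all genes, and was 0.23 without corn oil replicate 2.

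The stretches upstream of the 3 genes whose groups did not overlap are shown for their sequence only, since the arrays measure RNA. Each comes from the window of 250 bases before a start in the RefSeq promoter table of GRCr8, read 5′ to 3′ on the gene's strand, with short promoter motifs in capitals. For Aldh1l1 that start lies inside the outermost limits of the gene, so the last 38 bases of its window are not shown and 212 are. The motifs searched on both strands were TATAAA (the TATA box), CCAAT (the CCAAT box), GGGCGG (the GC box) and TGACNNNGC (the core of the antioxidant response element), and no match overlapped another in these 3. The stretches lie on the plus strand at chr2:229421875-229422124 for Adh7, chr4:124616970-124617181 for Aldh1l1 and chr13:82038429-82038678 for Aldh9a1.
Adh7: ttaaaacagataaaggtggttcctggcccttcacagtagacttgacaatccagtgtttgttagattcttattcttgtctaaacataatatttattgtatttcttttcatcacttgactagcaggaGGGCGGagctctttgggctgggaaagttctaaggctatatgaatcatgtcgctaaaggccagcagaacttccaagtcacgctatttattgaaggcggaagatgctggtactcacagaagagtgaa
Aldh1l1: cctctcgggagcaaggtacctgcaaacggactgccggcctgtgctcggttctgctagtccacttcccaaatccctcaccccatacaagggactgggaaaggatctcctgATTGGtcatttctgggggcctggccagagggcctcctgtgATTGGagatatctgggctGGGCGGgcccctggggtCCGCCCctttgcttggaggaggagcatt
Aldh9a1: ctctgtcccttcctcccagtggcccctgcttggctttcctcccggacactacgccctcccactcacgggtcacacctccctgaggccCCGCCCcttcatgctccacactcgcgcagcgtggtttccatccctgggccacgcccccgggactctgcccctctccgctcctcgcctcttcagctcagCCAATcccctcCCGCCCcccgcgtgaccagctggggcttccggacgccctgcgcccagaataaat

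Adh7 had 1 GC box in this window, whereas Aldh1l1 and Aldh9a1 each had 2. Aldh1l1 also had 2 CCAAT boxes, which start at -103 and -63 from the outermost start of the gene, and Aldh9a1 had 1 at -65. The GC content was 40.8% for Adh7, 60.8% for Aldh1l1 and 68.4% for Aldh9a1, beside a median of 51.2% over 33469 promoters. GC content and motif counts are over whole windows. The table held 8 of the 9 genes, all but Aldh2, and the windows of 3 (Aldh1a1, Aldh1l1 and Aldh3a2) reached into the gene's outermost limits. For Aldh1l1 this held for 38 bases and for Aldh3a2 for 114, whereas all 250 bases of the Aldh1a1 window lay within the gene. A CCAAT box was found in 7 of the 8 windows, against 34.0% of all promoters, and a GC box in 5 of the 8, against 30.5%. A TATA box was found in 1, that of Adh4, against 12.9%, and the antioxidant element core in 0 of the 8, against 10.1%. The genes thus differed in base composition, with Adh1, Adh4 and Adh7 at 39.2% to 41.2% GC and Adh5 at 62.4%. Adh7, Adh1, Adh4 and Adh5 nevertheless lie in that order in a single cluster in the RefSeq table, with Adh6a and Adh6 between Adh1 and Adh4.

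Levels are given as the log2 signal of a probe relative to the 75th percentile of its array, so that 1 unit is a doubling, and levels of different probes are not compared. A difference is the treated mean less the corn oil mean on that scale. SD is over 3 rats. SE and the 95% interval are those of the limma fit. Each gene is represented by its brightest probe.

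Adh7 encodes the alcohol dehydrogenase known mainly from stomach and other epithelia, an enzyme with high activity towards retinol. Its only probe stood at 2.69, 1.23 and 2.01 in corn oil replicates 1 to 3 and at 3.80, 3.12 and 2.89 in the treated replicates. The lowest treated rat was above the highest control, although the controls were spread more widely than the gap between the groups. The means were 1.98 ± 0.73 (SD, n = 3) and 3.27 ± 0.47 (SD, n = 3), a 2.44-fold difference with a 95% interval of 1.23-fold to 4.84-fold (SE 0.41 on the log2 scale, limma adjusted p = 0.341). The difference was 0.91 without corn oil replicate 2 and 1.65 without corn oil replicate 1. Of 9 genes known from stomach and squamous epithelium, 6 were above background on no array (Gkn1, Gkn2, Tff2, Krt5, Krt13 and Cblif), and only the gastric proton pump gene Atp4a and the trefoil gene Tff1 were tested, at 0.66 and -0.06. The summed signal of these 2, as a multiple of the 75th percentile, was 0.456 to 0.545 in corn oil and 0.484 to 0.793 in treated livers. Such a sum adds probe signals and is not an amount of RNA. The part of these genes in the Adh7 value was not tested. In whole liver, a change in the number of cells of a type and a change in RNA per cell cannot be told apart.

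Adh1, the main ethanol-oxidising dehydrogenase of liver, showed part of the same pattern between rats. It stood at 8.77, 7.91 and 8.38 in corn oil and at 8.94, 8.77 and 8.49 in treated livers. As for Adh7, corn oil replicate 2 was lowest and anthranilic acid replicate 1 highest, but corn oil replicate 1 lay among the treated rats. The difference was 0.38 (SE 0.24, 95% interval -0.19 to 0.95, limma adjusted p = 0.537), and it was 0.16 without corn oil replicate 2 and 0.59 without corn oil replicate 1. The other Adh1 probe gave 0.37.

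**Figure D1:**
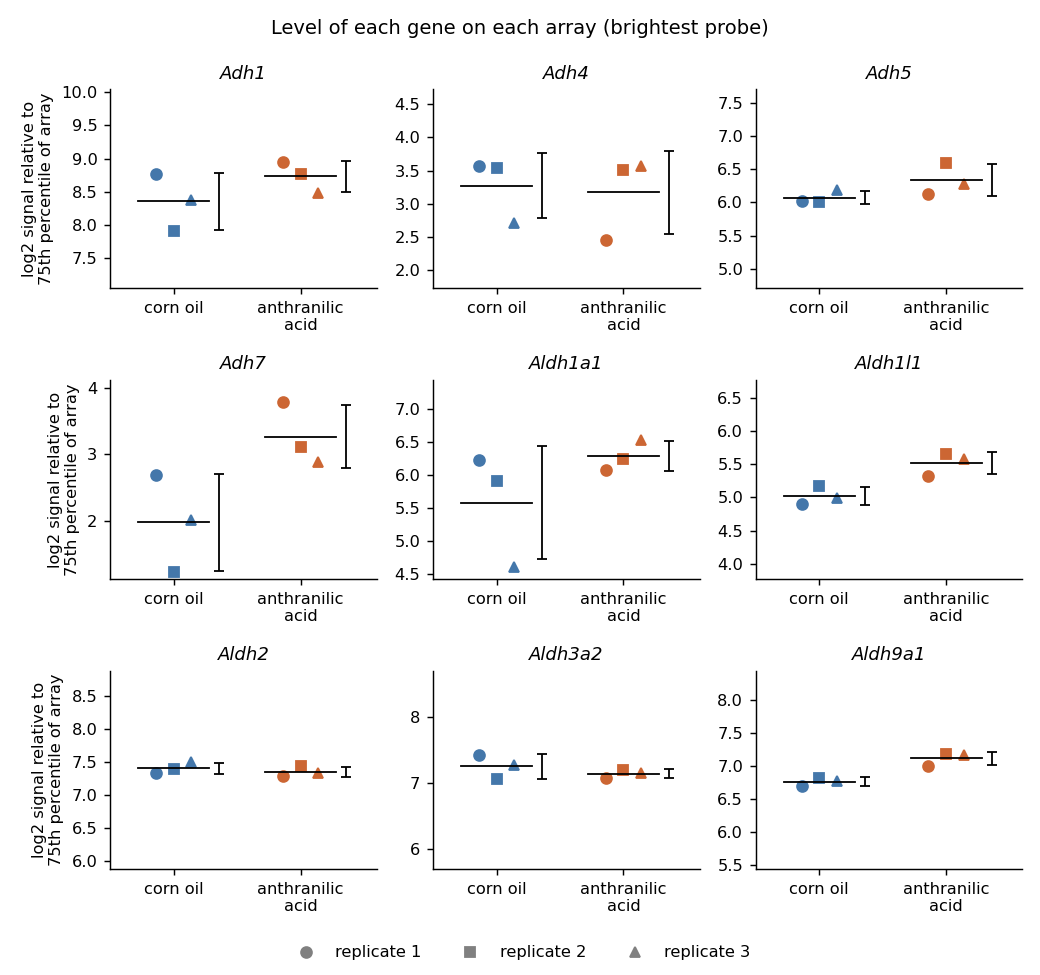
Log2 signal of the brightest probe of each gene relative to the 75th percentile of its array (vertical axes, each spanning the same range of 3 log2 units) for the corn oil and anthranilic acid rats. Markers are single arrays, horizontal lines group means and error bars the SD of 3 rats. The groups are apart for Adh7, Aldh1l1 and Aldh9a1 and overlap for the other 6 genes.

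Adh4, a liver dehydrogenase with a preference for larger alcohols and retinoids, was measured by 3 probes and split the rats in another way. The brightest stood at 3.57, 3.54 and 2.71 in corn oil and at 2.45, 3.50 and 3.57 in treated livers. Corn oil replicate 3 and anthranilic acid replicate 1 were low at each of the 3 probes, and the other 4 rats were close together. The difference was -0.10 (SE 0.37, limma adjusted p = 0.931), and the other probes gave 0.03 and -0.06. Its sign depended on single rats, with 0.05 without corn oil replicate 1, 0.04 without corn oil replicate 2 and 0.26 without anthranilic acid replicate 1. With 1 low rat in each group the 95% interval was wide, from 0.50-fold to 1.74-fold.

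Adh5 encodes the glutathione-dependent formaldehyde dehydrogenase, which also reduces S-nitrosoglutathione and is present in nearly all cells. Its levels ran from 6.01 to 6.19 in corn oil and from 6.13 to 6.60 in treated livers, where replicate 2 was the highest. The difference was 0.27 (SE 0.14, 95% interval -0.07 to 0.60, limma adjusted p = 0.476), and 0.13 without anthranilic acid replicate 2. The dimmer probe gave 0.32.

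Aldh1l1 is the folate enzyme of the family, a cytosolic dehydrogenase that releases carbon dioxide from formyltetrahydrofolate. It had the smallest p of the 9 genes. Its probe stood at 4.91, 5.17 and 5.00 in corn oil and at 5.33, 5.65 and 5.57 in treated livers, so the groups were apart. The means were 5.02 ± 0.13 (SD, n = 3) and 5.52 ± 0.17 (SD, n = 3), a 1.41-fold difference with a 95% interval of 1.14-fold to 1.73-fold (SE 0.12 on the log2 scale, limma adjusted p = 0.268). Leaving out each rat in turn gave 0.43 to 0.59.

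Aldh9a1 oxidises trimethylaminobutyraldehyde on the way to carnitine, and also betaine aldehyde and aminobutyraldehyde. Its brightest probe stood at 6.70, 6.82 and 6.77 in corn oil and at 7.00, 7.18 and 7.16 in treated livers. The means were 6.76 ± 0.06 (SD, n = 3) and 7.11 ± 0.10 (SD, n = 3), a 1.27-fold difference with a 95% interval of 1.09-fold to 1.49-fold (SE 0.09 on the log2 scale, limma adjusted p = 0.285). The dimmer probe stood at 3.85, 4.01 and 3.67 against 4.15, 4.63 and 4.44, again without overlap, and gave 0.56 (SE 0.16, limma adjusted p = 0.303). Both probes of this gene were thus higher in each treated rat than in any control. With any 1 rat left out the brightest probe gave 0.32 to 0.41.

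Aldh1a1, the cytosolic retinal dehydrogenase, had a larger difference but a much larger spread. It stood at 6.23, 5.91 and 4.61 in corn oil and at 6.08, 6.24 and 6.53 in treated livers. Corn oil replicates 1 and 2 lay with or near the treated rats and corn oil replicate 3 far below them, at both probes. The difference was 0.70 (SE 0.41, 95% interval -0.30 to 1.70, limma adjusted p = 0.517), and it was 0.22 without corn oil replicate 3. The other probe gave 0.66.

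Aldh2, the mitochondrial enzyme that removes acetaldehyde, differed little between rats. Its levels ran from 7.33 to 7.49 in corn oil and from 7.28 to 7.43 in treated livers. The difference was -0.06 (SE 0.09, limma adjusted p = 0.810), with a 95% interval of 0.825-fold to 1.12-fold, and the other probe gave -0.05. It was -0.10 to -0.02 with a rat left out. Aldh3a2, the fatty aldehyde dehydrogenase of the endoplasmic reticulum, ran from 7.06 to 7.43 in corn oil and from 7.08 to 7.20 in treated livers. Its difference was -0.11 (SE 0.12, limma adjusted p = 0.728), with a 95% interval of 0.764-fold to 1.13-fold, and its dimmer probe gave -0.19. It was -0.20 to -0.02 with a rat left out.

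**Figure D2:**
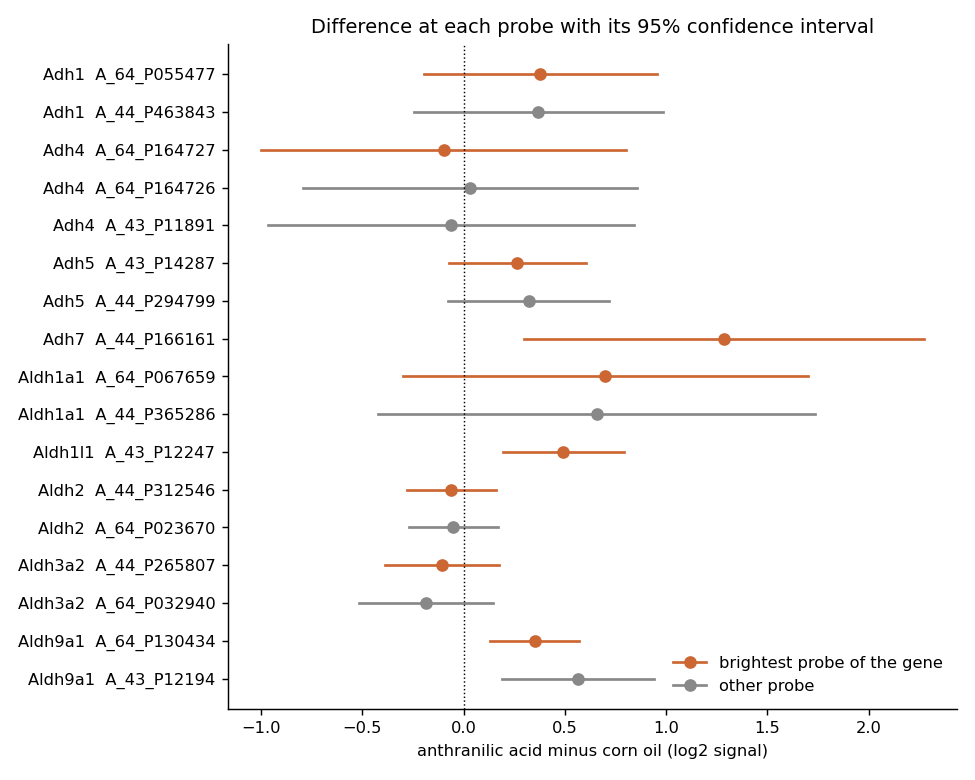
Difference between anthranilic acid and corn oil at each of the 17 probes (horizontal axis, log2 signal), with the 95% confidence interval of the limma fit as a bar, orange for the brightest probe of a gene and grey for its other probes. The intervals of Adh7, Aldh1l1 and both Aldh9a1 probes lie above 0 before adjustment over all probes. Among probes of the same gene, those of Aldh9a1 lie furthest apart, at 0.35 and 0.56.

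Shifts of probes of the same gene were compared directly in 9 pairs from the 7 genes with more than 1 probe. Limma called 0 of the 9, with 0 at unadjusted p under 0.05. Over all genes it was 3 (0.0306%) and 732 (7.48%) of 9792 such pairs, so 0 of 9 does not show that probes agree. The largest difference of shifts was the 0.21 between the Aldh9a1 probes (SE 0.11, limma adjusted p = 0.746), which gave 0.35 and 0.56.

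The genes differed widely in how much rats of the same group varied. The within-group SD was 0.62 for Aldh1a1, 0.62 for Adh7 and 0.56 for Adh4, at the 96.4, 96.4 and 95.5 percentile of all genes, and 0.35 for Adh1, at the 86.8 percentile. Aldh2 and Aldh9a1 had an SD of 0.08, at the 16.8 and 19.4 percentile.

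Slide 1 carried 5 of the arrays and slide 2 only that of anthranilic acid replicate 3. In the fit with slide as a block, whose treatment term equals the difference within slide 1, Adh7 stood at 1.48, Aldh1l1 at 0.46 and Aldh9a1 at 0.33 (limma adjusted p = 0.410, 0.411 and 0.421). Within slide 1 the vehicle arrays were in row 1 and the dosed arrays in row 2, and there the effects of row and dose cannot be told apart. The array of anthranilic acid replicate 3 was in row 1 of slide 2, which carried no vehicle array of this comparison. Between 53.3% and 58.0% of 61657 probes were well above background on an array, and no spot was saturated. Across probes, the correlation of arrays of the same group was 0.987 to 0.992 and that of arrays of different groups 0.984 to 0.989. All 10 hepatocyte markers were tested, with 9 of the 10 below 0 and a median of -0.09. Alb stood at -0.06 and the lowest, Apoa1, at -0.57 (SE 0.15, limma adjusted p = 0.285). Limma called 0 of the 10, with 1 at unadjusted p under 0.05, beside 11.6% of all genes. The groups did not overlap for 5 of the 10, beside 19.8% of all genes.

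Genes around these enzymes were taken from 6 lists, of which 71 genes were tested. Limma called 0 of the 71, against 10 (14.1%) at unadjusted p under 0.05, and the groups did not overlap for 19 (26.8%), beside 11.6% and 19.8% of all genes. The names given are among the 3 genes of each list with the smallest p, with a few others for their role.

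Other aldehyde dehydrogenases had a median of 0.11 over 10 tested genes, 8 of them higher, and limma called 0, with 0 at unadjusted p under 0.05. The median was 0.05 without corn oil replicate 1 and 0.16 without anthranilic acid replicate 3. Aldh1a3, a retinal dehydrogenase, stood at -0.996 (SE 0.51, limma adjusted p = 0.467), with corn oil replicate 2 at -1.82 and the other 5 rats at -4.21 to -3.60, and only 2 treated arrays above background. Without corn oil replicate 2 it stood at -0.37. Aldh3a1 stood at 0.18, and at 0.10 without corn oil replicate 1. Aldh4a1, of proline breakdown, stood at 0.22, and at 0.12 without anthranilic acid replicate 2. Other alcohol and carbonyl oxidoreductases had a median of 0.09 over 12 genes, 7 of them higher and 0 called, with 1 at unadjusted p under 0.05. The median was 0.04 without corn oil replicate 3 and 0.20 without anthranilic acid replicate 1. The gene at unadjusted p under 0.05 was the aldehyde reductase Akr7a2 at 0.32 (SE 0.10, limma adjusted p = 0.324), ahead of the sorbitol dehydrogenase Sord at 0.24 and the aldehyde reductase Akr1a1 at 0.19.

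For ethanol and acetate outside the dehydrogenases, the median was 0.13 over 7 genes, with 4 higher and 0 called against 2 at unadjusted p under 0.05. The monocarboxylate transporter Slc16a1 stood at -0.27 (SE 0.08), and the acetyl-CoA synthetases Acss1 and Acss2 stood at 0.37 and 0.48 (limma adjusted p = 0.336, 0.398 and 0.496). Acss2 stood at 0.26 without corn oil replicate 2. Without corn oil replicate 3 the list had a median of 0.05, and without anthranilic acid replicate 1 of 0.08. The microsomal ethanol oxidase Cyp2e1 was at 0.23 and catalase, Cat, at -0.0035. In the pathway of formaldehyde, formate and folate, to which Adh5 and Aldh1l1 belong, the median was 0.18 over 13 genes, with 8 higher and 0 called against 2 at unadjusted p under 0.05. The median of that list was 0.04 within slide 1, that is, without anthranilic acid replicate 3. Sardh, which frees a formaldehyde unit from sarcosine, stood at 0.43 (SE 0.11, limma adjusted p = 0.279) and the histidine-breakdown enzyme Ftcd at 0.18. Ftcd was not among the 2 genes at unadjusted p under 0.05. Esd, the esterase that follows Adh5 in formaldehyde removal, stood at -0.08, beside 0.27 for Adh5.

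Retinoid genes, the setting of Adh7 and Aldh1a1, had a median of -0.04 over 16 genes, with 6 higher and 0 called, and 0 at unadjusted p under 0.05. With a repeated entry of this list counted again, the median was -0.05 over all rats and 0.03 without anthranilic acid replicate 1. The carotene-cleaving Bco1 stood at 0.60 (SE 0.31, limma adjusted p = 0.470; 0.35 without corn oil replicate 1 and 0.96 without corn oil replicate 3), the retinol dehydrogenase Rdh10 at 0.21 and the retinoic acid receptor Rara at 0.19. Rdh10 stood at 0.11 without corn oil replicate 2 and 0.12 without anthranilic acid replicate 2, and Rara at 0.10 without anthranilic acid replicate 2. Cyp26a1, which degrades retinoic acid and is known to follow its level, stood at -0.10 (SE 0.51), and at -0.64 to 0.21 with a rat left out. Among enzymes that form the aldehydes, or feed the same routes, the median was 0.12 over 13 genes, with 9 higher and 0 called against 5 at unadjusted p under 0.05. The median was 0.17 without anthranilic acid replicate 1. The monoamine oxidase Maoa stood at 0.33 (SE 0.08), the phytanoyl-CoA hydroxylase Phyh at -0.49 (SE 0.13) and the choline dehydrogenase Chdh, which makes the betaine aldehyde that Aldh9a1 can oxidise, at 0.38 (SE 0.11), with limma adjusted p of 0.268, 0.283 and 0.308. Of the carnitine enzymes on either side of Aldh9a1, Bbox1 stood at 0.31 and Tmlhe at -0.02.

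**Figure D3:**
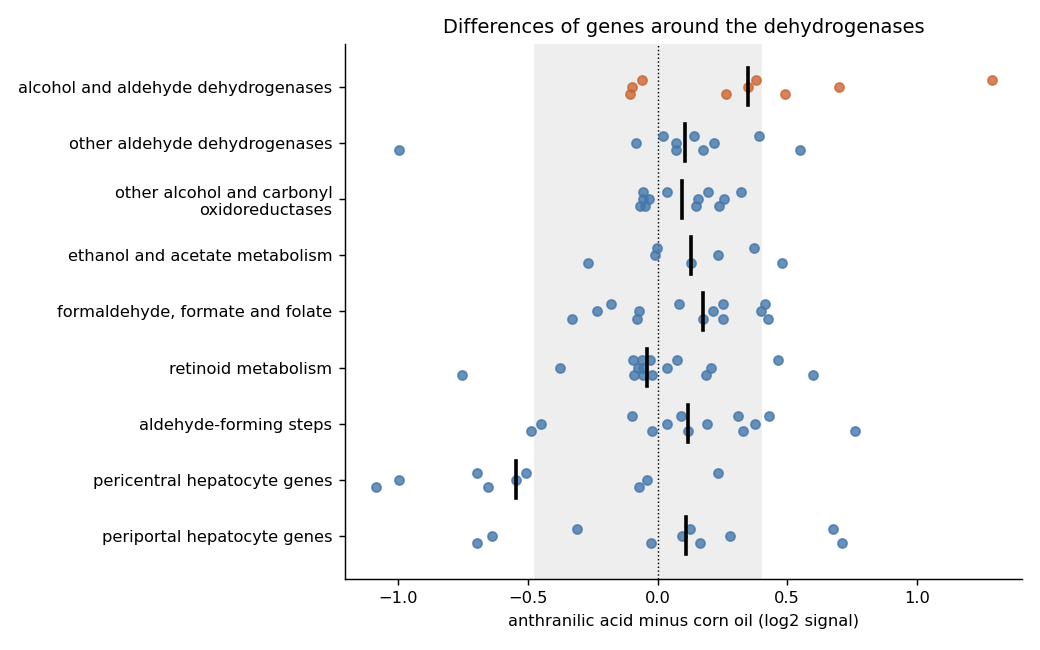
Differences of the 9 dehydrogenases (orange) and of tested genes of 6 surrounding lists and 2 lists of liver zonation (blue), as anthranilic acid minus corn oil in log2 signal (horizontal axis). Black bars are list medians and the grey band holds the middle 90% of all genes, -0.47 to 0.40. The band is that of single genes and is no measure of how far a list's median can vary. The dehydrogenase median is 0.35 and the pericentral median -0.54.

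Pericentral hepatocyte genes, which mark the cells around the central vein, had a median of -0.54 over 9 tested genes, 8 of them lower. Limma called 0 of the 9, with 2 at unadjusted p under 0.05, beside 11.6% of all genes. The groups did not overlap for 3 of the 9, beside 19.8% of all genes. The ammonium transporter Rhbg stood at -0.995 (SE 0.34), the glutamine synthetase Glul at -0.54 (SE 0.21) and the ornithine aminotransferase Oat at -0.69 (SE 0.29), with limma adjusted p of 0.364, 0.397 and 0.408. The list's median was -0.71 to -0.35 with a rat left out, the latter without corn oil replicate 1, when Glul stood at -0.35. Oat stood at -0.39 without anthranilic acid replicate 3. Cyp2e1, also pericentral, stood at 0.23, and at 0.04 without corn oil replicate 3, and Lgr5 was above background on no array. The summed signal of the list was 369 to 539 times the 75th percentile in corn oil and 419 to 525 in treated livers. On each array most of that sum was the signal of the Cyp2e1 probe, the only gene of the list that was higher in treated livers. Levels of different probes are not comparable, so this is a share of signal and not of RNA. The sum therefore does not describe the 8 lower genes. The part of the pericentral genes in the dehydrogenase values was not tested.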

How the data were processed

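RNA of 6 rat livers was measured on single-colour Agilent arrays. Per the file headers, the deposited spot intensity values come from Agilent Feature Extraction 10.7.1.1, with background subtracted, spatial trends removed and dim spots raised to a small positive value, without scaling between arrays. Version 10.7 of that software is listed in the submitters' processing notes. The authors' deposited table holds a ratio of that signal to a value within 0.126% of each array's 75th percentile (column medians 0.0887 to 0.0976). Its scale is known only from that match, and it served as an alternative.

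Signals were log2-transformed and expressed relative to the 75th percentile of the non-control probes of their array. Control spots and 14 outlier spots were left out. A probe was tested if well above background on all 3 arrays of a group, with 2 or more unflagged spots in each group. Accessions were matched to GRCr8 RefSeq genes, which named 27447 of 61657 probes (44.5%). A current symbol took precedence over a synonym. The headers name rn4, so no gene coordinates of the arrays are given, and upstream sequences are those of the RefSeq table. The comparison used lmFit and eBayes of limma 3.58.1 under R 4.3.3 (two-sided, Benjamini-Hochberg over all tested probes, threshold 0.05), and all p-values are from that fit. The fit was also run on simulated data with known changes. How often it recovered changes of the size seen here is not reported, so the run is no measure of its power. The number of arrays limits the precision.

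The genes and lists were chosen with earlier results of these data known, so no list was tested as a set. All members are named with all probes, and of each surrounding list the 3 genes with the smallest p. A gene that this rule would name is not reported here. Cell type lists are described where their median lay outside the middle 90% of single genes, which chose them and is no test of a list. Leaving out single rats for those lists and genes was added after seeing the data. Hepatocyte and stomach markers, Esd, Cyp2e1, Cat, Cyp26a1, Bbox1, Tmlhe and Lgr5 are given beyond that rule. Replicates are different animals per the labels. Same-numbered rats' deviations from their group means correlated at -0.05 to 0.07, and those of differently numbered rats at -0.13 to 0.16. Such values cannot settle whether the numbers pair rats, and the main fit did not pair them.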

Additional observations from a re-analysis of the deposited data

How the results depend on the processing

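Over 17 alternatives, of which 6 left out a rat, limma called 0 dehydrogenases and 0 genes of the surrounding lists. The smallest limma adjusted p of any dehydrogenase was 0.192, for Aldh9a1 with a trended robust variance. Of 153 dehydrogenase differences under alternatives, 150 kept their sign. The other 3 were those of Adh4 with a rat left out, which ran from -0.38 to 0.26. All 305 values of the 18 named pathway genes kept theirs. Many of these signs could not change, so the counts are no measure of stability. Changes to the filter on dim probes, the replicate block and the trended robust variance left the differences themselves as they were. Slide as a block gave the same differences as leaving out anthranilic acid replicate 3. The count of called probes, 11 of 33428 in the main fit, varied between alternatives. It was again 11 with quantile normalization and with the authors' table. It was 50 with normexp background correction (offset 50, on median spot and background signals) and 45 with a trended robust variance. With array weights it was 29 and with median scaling 21. It was 6 with slide as a block and 2 to 8 with a rat left out. Without the filter on dim probes it was 2 of 61656, and with only probes above background on all 6 arrays 2 of 31375. With the replicate block it was 2, and whether the numbers pair the rats is not known. The causes were not tested. With 3 rats a group, the 95% intervals of the Adh1, Adh5 and Aldh1a1 differences held 0 and their groups overlapped.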
